A study of Homo sapiens with 24 samples.

Results

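Transcript levels of 10 genes of the S100 calcium-binding protein family were followed in OE33 cells, a human esophageal adenocarcinoma line, under 4 perturbations. The members were S100A2, S100A4, S100A6, S100A8, S100A9, S100A10, S100A11, S100A14, S100A16 and S100P, taken by their Ensembl identifiers, and they made up 10 of the 61860 gene rows of each count table. Bulk RNA-seq was done on 24 libraries, with 3 libraries in each of 8 groups. In the first experiment, OE33 cells were grown as subcutaneous tumors for 21 days in male BALB/c-nu nude mice, bought at 4 weeks of age, that had been fed a high-fat diet (HFD, 35% fat) or a normal diet (ND, 4.3% fat) for 8 weeks before injection. The mice stayed on the same diets while the tumors grew. In another, cultured OE33 cells carried a plasmid for HA-tagged TRIM15, an E3 ubiquitin ligase, or the empty vector (EV), and were taken 48 h after transfection. In the remaining experiments, cultured OE33 cells received an shRNA against YY2, a zinc finger transcription factor (shYY2), or against FOXRED1, a mitochondrial flavoprotein needed for complex I assembly (shFOXRED1), each with its own shControl, for 72 h. All groups thus derive from a single cell line. The nude mice lack T cells but keep other host cells, which limits the xenografts as a model, and which shRNA sequence was sequenced is not given in the sources used here.

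S100 proteins are small proteins with a pair of EF-hand motifs that bind calcium, after which most of them, as dimers, expose a surface that docks onto target proteins. Inside cells they act on annexins, the cytoskeleton and proteolysis. S100A8 and S100A9 form the heterodimer calprotectin, which is abundant in neutrophils and is also made by stressed or inflamed squamous epithelium, and several members serve as ligands of the receptors AGER (RAGE) and TLR4 when released. Most S100 genes lie in the epidermal differentiation complex on chromosome 1q21, beside the genes of the cornified envelope, the protein shell of keratinised squamous cells.

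In the GENCODE 29 annotation of GRCh38, 9 of the 10 members lay on chromosome 1 between 151982915 and 153616986, a span of 1.634 Mb, and S100P lay alone on chromosome 4 (6693069 to 6697170, plus strand). S100A10 (151982915 to 151994390, minus strand) and S100A11 (152032506 to 152047907, minus strand) stood at the near end of the span. S100A14 (153614255 to 153616986, minus strand) and S100A16 (153606886 to 153613145, minus strand) were neighbours at the far end, beyond S100A9 (153357854 to 153361027, plus strand), S100A8, S100A6, S100A4 and S100A2 (153561108 to 153567890, minus strand).

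The 250 bases before the RefSeq transcript start (GRCh38.p14, read along the gene's strand) are shown for 4 members that illustrate different patterns between treatments. S100A9 had the largest fold of the members above 1 CPM in the xenografts, S100A2 and S100P moved furthest in opposite directions with shYY2, and S100A14 moved in opposite directions with the 2 shRNAs. Capitals mark a match to a searched motif.
S100A2 (second RefSeq start, chr1:153565845-153566094, minus strand): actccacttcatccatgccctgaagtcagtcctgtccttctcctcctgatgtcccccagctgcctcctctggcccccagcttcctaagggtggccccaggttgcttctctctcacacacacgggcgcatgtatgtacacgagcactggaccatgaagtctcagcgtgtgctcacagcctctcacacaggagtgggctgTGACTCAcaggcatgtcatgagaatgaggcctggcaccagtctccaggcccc
S100A9 (chr1:153357604-153357853, plus strand): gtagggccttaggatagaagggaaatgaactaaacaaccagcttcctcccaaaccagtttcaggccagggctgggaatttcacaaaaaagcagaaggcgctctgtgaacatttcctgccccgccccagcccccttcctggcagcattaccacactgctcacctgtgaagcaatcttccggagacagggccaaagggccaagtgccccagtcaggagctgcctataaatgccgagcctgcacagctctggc
S100A14 (chr1:153616326-153616575, minus strand): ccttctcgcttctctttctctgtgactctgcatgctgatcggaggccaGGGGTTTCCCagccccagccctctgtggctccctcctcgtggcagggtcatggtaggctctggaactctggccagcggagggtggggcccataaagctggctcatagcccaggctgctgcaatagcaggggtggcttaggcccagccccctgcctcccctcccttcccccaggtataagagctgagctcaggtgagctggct
S100P (chr4:6693628-6693877, plus strand): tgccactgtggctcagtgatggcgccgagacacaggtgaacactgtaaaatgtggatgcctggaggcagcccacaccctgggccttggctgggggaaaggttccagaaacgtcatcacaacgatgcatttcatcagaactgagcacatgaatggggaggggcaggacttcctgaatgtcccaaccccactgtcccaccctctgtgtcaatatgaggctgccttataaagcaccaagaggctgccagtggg
Windows from 250 bases before to 50 bases after the start were searched on both strands for 5 motifs, and all 10 members had at least 1 window in the table of 35116. AP-1 (TGANTCA) was found in S100A2, as TGACTCA, and in 7.71% of all windows. NF-kB, by its consensus, was found in S100A14, as GGGGTTTCCC, and in 5.91% of all windows. C/EBP (TTNNGCAA) was found in S100A11 and in 10.5% of all windows, and TEAD (GGAATG) in S100A16 and in 14.0%. The YY factor motif (AANATGGC) was found in 0 of the 10 members and in 6.58% of all windows. These shares are per window, while S100A8 had 3 windows and S100A2 and S100A16 had 2 each, so members and windows are unlike units. The first window of S100A2, which is not shown, held 0 matches. No match overlapped another, and the windows of S100A9 and S100P held none of the 5. These matches describe letters in the reference and are no evidence of binding.

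The tables hold raw counts, with 14299807 to 45994561 counts per library. TRIM15 had 111, 130 and 181 counts with HA-TRIM15 and 0 in each EV library, YY2 had 11 to 12 counts with shYY2 against 40 to 46, and FOXRED1 fell from 17.4 ± 0.286 to 10.1 ± 1.19 CPM with shFOXRED1 (SD, n = 3). FOXRED1 was also lower with shYY2, at 17.7 ± 1.5 against 32.8 ± 0.749 CPM. CPM are counts scaled to a common library total within an experiment, by the trimmed mean of M-values (TMM). All 12 epithelial markers (EPCAM, CDH1 and keratins among them) were tested in every experiment and summed to 11800 to 17900 CPM per library. Of 12 myeloid markers, 10 were under 1 CPM in every group, and of 13 stromal or endothelial markers 11 or 12 were. The 37 mitochondrial genes of the tables had 0 counts in all libraries. The 6 libraries of the FOXRED1 experiment stood apart from all other libraries in several members, as described further on, so levels were tested within experiments. Fold changes are treated over control on the log2 scale with their standard error (SE), from the quasi-likelihood test of edgeR, with p-values adjusted over all genes tested by Benjamini and Hochberg, and a gene was called at adjusted p under 0.05. The labels do not say whether the 3 libraries of a group came from separate cultures or animals, so the p-values measure only the spread between these libraries.

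Over the 4 experiments, 36 tests of members were possible and 25 were called, 12 higher and 13 lower, with folds between 1.07 and 4.3. In the xenografts 8 of 10 members were higher with HFD and 2 were lower. With HA-TRIM15 1 of 9 tested members was lower and none was higher; at unadjusted p under 0.05 3 were lower and 3 higher, and DESeq2 called 0. With shYY2 3 of 9 were higher and 6 lower, and with shFOXRED1 1 of 8 was higher and 4 lower. Large shares of all genes were called in the same comparisons, 49.5% with HFD, 22.1% with HA-TRIM15, 75% with shYY2 and 36.6% with shFOXRED1, so that a called member by itself sets the family little apart, and the size and direction of each change carry the description. The share with HA-TRIM15 depended on single libraries, since the 3474 genes called became 2034 to 2243 without any 1 of the EV libraries or the second HA-TRIM15 library, and 5100 without the first HA-TRIM15 library. In each direction, 25.6% of genes were higher and 23.9% lower with HFD, 12.5% and 9.53% with HA-TRIM15, 36.8% and 38.1% with shYY2, and 16.8% and 19.7% with shFOXRED1. The median log2 fold change of the tested members was 0.24 with HFD against -0.012 over all tested genes, -0.08 against -0.007 with HA-TRIM15, -0.459 against -0.008 with shYY2, and -0.286 against 0.012 with shFOXRED1. Treated and control libraries did not overlap in 10 of 10 tested members with HFD, where 56.2% of genes did not, in 2 of 9 with HA-TRIM15 (37.7% of genes), in 8 of 9 with shYY2 (76.3%) and in 6 of 8 with shFOXRED1 (46.7%). Of the 10 members, 6 were called higher in 1 experiment and lower in another.

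**Figure D1:**
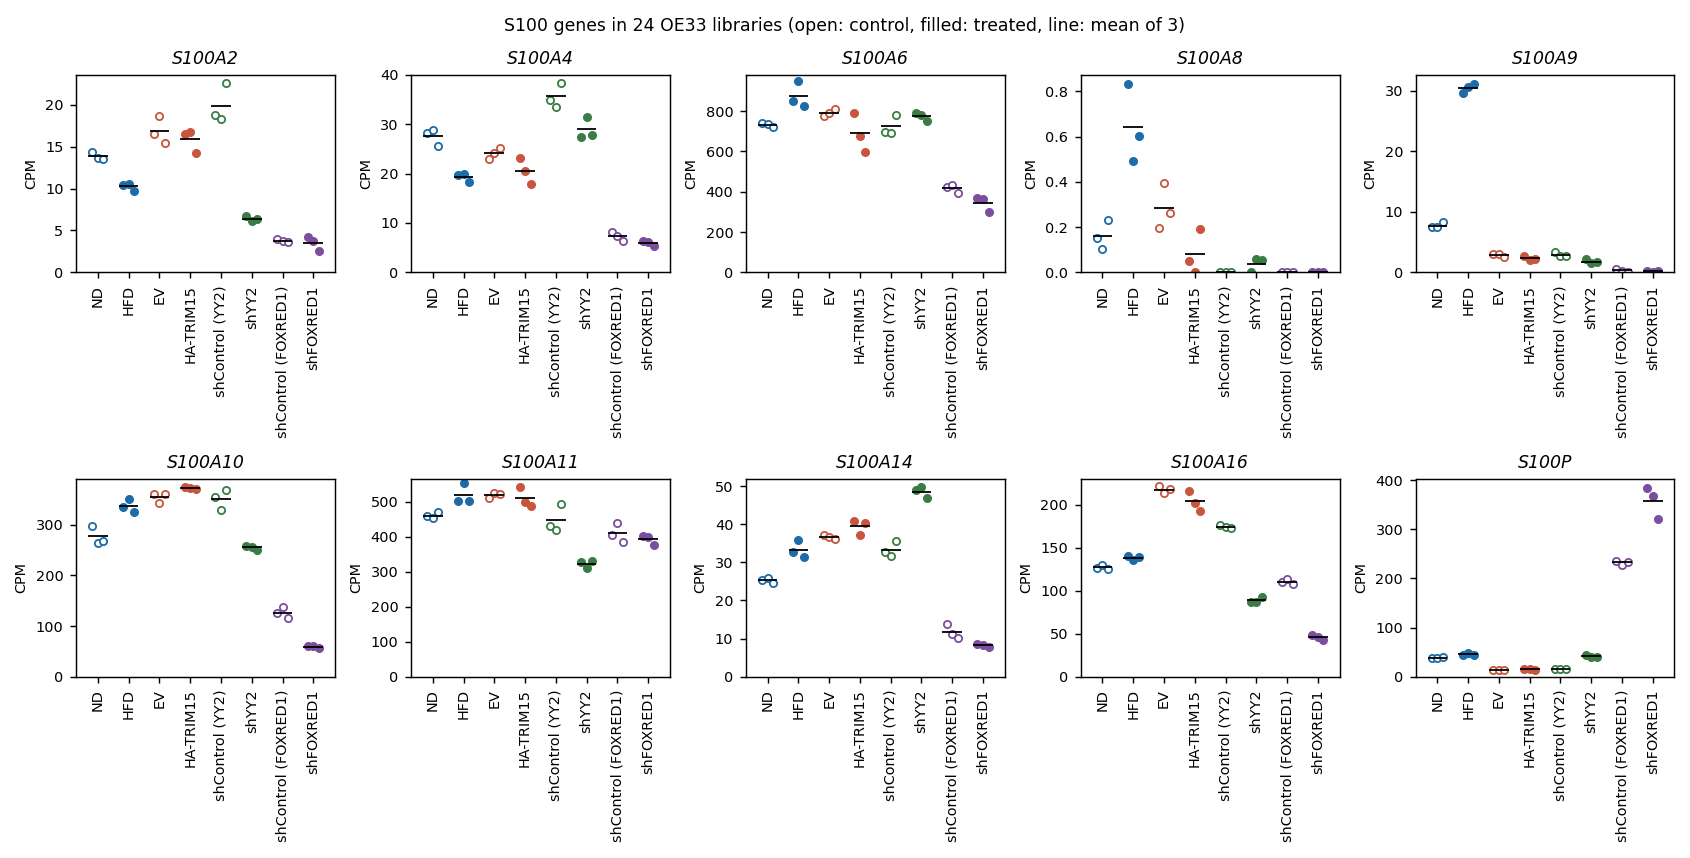
CPM of the 10 members (y axes from 0, scaled within each experiment) in the 24 libraries, by group on the x axes. Points are libraries, open for control and filled for treated, and lines are means of 3. S100A9 reached 31.1 CPM at most with HFD and 8.28 at most with ND, and S100P lay at 228 CPM or more in the FOXRED1 experiment and at 48.9 or less elsewhere.

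**Figure D2:**
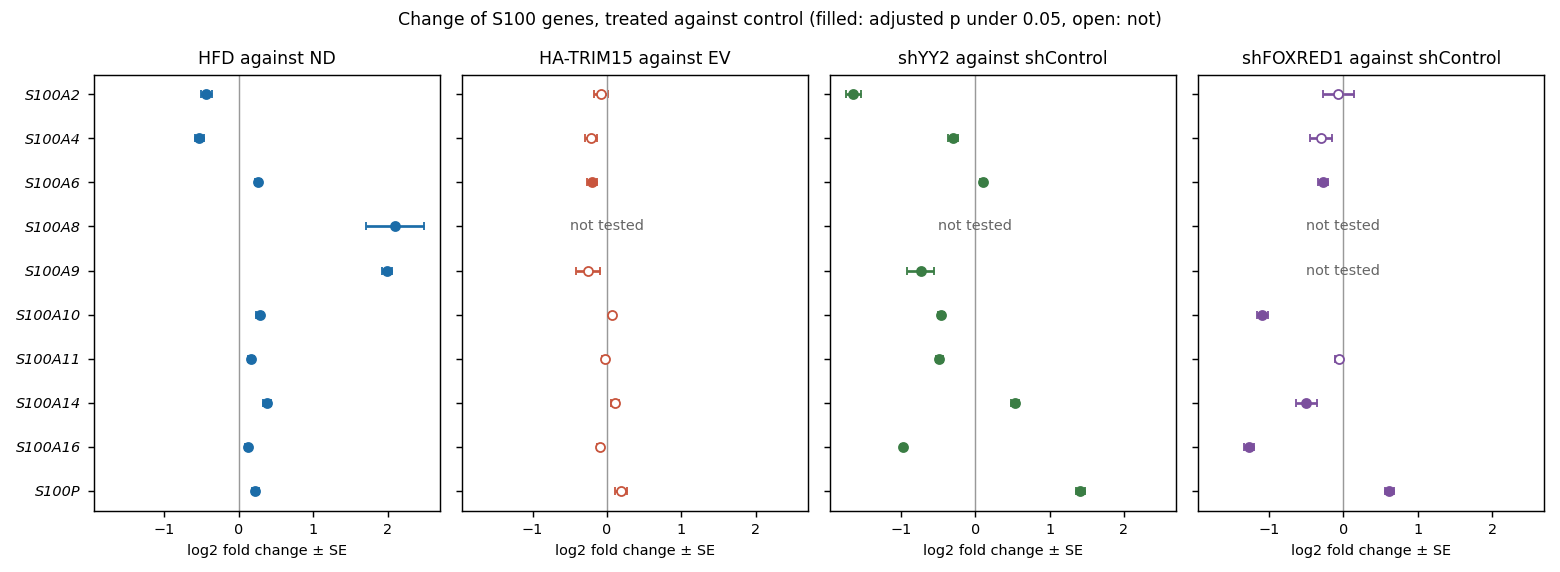
Log2 fold change of each member (x axes) with its SE as bars in the 4 experiments, filled where adjusted p was under 0.05. The points for S100A8 and S100A9 with HFD lie near 2, those for HA-TRIM15 run from -0.25 for S100A9 to 0.19 for S100P, and S100A10 and S100A16 lie below 0 with both shRNAs.

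The calprotectin genes changed most in the xenografts. S100A9 was 29.6, 30.6 and 31.1 CPM in the HFD tumors and 7.5, 7.43 and 8.28 CPM in the ND tumors. Each HFD tumor was above each ND tumor, and S100A9 rose by 1.99 (SE 0.067, adjusted p = 1.38e-12 by edgeR), a fold of 3.97. Among the 17012 genes tested this was the change of rank 11 when ordered from the most increased, and S100A8 had rank 8. S100A8, its partner subunit, was far less abundant, with 19, 9 and 23 counts with HFD and 4, 5 and 5 counts with ND. The groups did not overlap in CPM either, and S100A8 rose by 2.1 (SE 0.39, adjusted p = 0.00028 by edgeR), a fold of 4.3 that rests on these few counts.

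Human myeloid markers were also read, although host myeloid cells in these tumors are of the mouse. These markers therefore cannot show whether such cells were present. Their summed level was 14.8 to 15.1 CPM with HFD and 15.9 to 17.3 CPM with ND, nearly all of it ITGAM and CD14. PTPRC, the pan-leukocyte phosphatase, was 0.0146 CPM with HFD and 0.059 with ND, MPO of neutrophil granules was 0.0701 and 0.0209, and neutrophil elastase (ELANE) was at 0 in both. How reads of mouse cells were handled in these tumors is not given in the sources used here. Of 12 squamous markers 10 were tested, 7 were higher and 2 lower with HFD, and their sum was 208 to 213 CPM against 148 to 152 CPM. Of all tested genes, 25.6% were higher and 23.9% lower with HFD. SERPINB3, a squamous protease inhibitor, was 12.6 CPM with HFD and 0.444 with ND, while KRT5 was 0.0467 and 0.028. The 2 lower markers were TP63, at 1.22 and 1.99 CPM, and KRT13, at 0.633 and 1.14 CPM, and DESeq2 called 0 lower. The part of squamous differentiation in the calprotectin values was not tested. In bulk tumors, fewer cells of a type and less RNA per cell cannot be told apart.

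In the cultures the calprotectin genes were low. S100A9 was 2.68, 2.08 and 2.28 CPM with HA-TRIM15 and 2.96, 3.08 and 2.47 CPM with EV, overlapping groups that differed by -0.25 (SE 0.16, adjusted p = 0.305 by edgeR). With shYY2 it was 2.13, 1.5 and 1.68 CPM against 3.35, 2.66 and 2.77 CPM, without overlap, and fell by 0.73 (SE 0.18, adjusted p = 0.00215 by edgeR). In the FOXRED1 experiment S100A9 had 4, 2 and 4 counts with shFOXRED1 and 10, 4 and 2 counts with shControl, too few to be tested. The S100A9 effect of HFD exceeded that of HA-TRIM15 by 2.24 (SE 0.19, adjusted p = 2.02e-10 by edgeR), in a test of the difference itself over all 24 libraries. S100A8 had 1, 0 and 3 counts with HA-TRIM15 and 4, 9 and 7 with EV, at most 1 count per library in the YY2 experiment and 0 in all 6 libraries of the FOXRED1 experiment. In the cultures S100A8 stayed below the count filter (minimum count 10) and was not tested.

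S100A10 is the light chain of the annexin A2 heterotetramer, which binds membranes and plasminogen at the cell surface. It was 335, 351 and 326 CPM with HFD and 297, 265 and 269 CPM with ND, without overlap, and rose by 0.28 (SE 0.044, adjusted p = 4.83e-05 by edgeR). The shYY2 libraries had 259, 256 and 251 CPM against 356, 329 and 369 CPM and the level fell by 0.46 (SE 0.037, adjusted p = 1.43e-08). With shFOXRED1 it was 60.7, 60.6 and 56.9 CPM against 125, 138 and 115 CPM and fell by 1.09 (SE 0.071, adjusted p = 3.77e-09). Groups were separate in both knockdowns, and the fall was 0.67 larger with shFOXRED1 than with shYY2 (SE 0.078, adjusted p = 1.25e-08). With HA-TRIM15 it was 375, 373 and 371 CPM against 361, 344 and 360 CPM, which did not overlap either, but the difference of 0.07 (SE 0.031) was not called (adjusted p = 0.107).

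ANXA2, the annexin that S100A10 pairs with, was called in all 4 experiments. It was 1720 ± 27.9 CPM with HFD and 640 ± 4.25 CPM with ND and rose by 1.43 (SE 0.031, adjusted p = 2.07e-14). shYY2 libraries gave 1190 ± 22.7 against 1850 ± 17.3 CPM and the level fell by 0.64 (SE 0.024, adjusted p = 1.58e-12), and with shFOXRED1 it was 635 ± 9.99 against 1090 ± 14.6 CPM and fell by 0.78 (SE 0.042, adjusted p = 4.46e-10; SD, n = 3 in each group, edgeR). In these 3 experiments ANXA2 and S100A10 had the same sign and both were called. With HA-TRIM15, ANXA2 was also higher, at 2530 ± 25.2 against 2310 ± 28.2 CPM (0.13, SE 0.024, adjusted p = 0.0016 by edgeR). The S100A10 change there had the same sign (0.07) but was not called.

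S100A16, a widely expressed member of the family, fell in both knockdowns. It was 87, 86.6 and 92.3 CPM with shYY2 and 176, 174 and 173 CPM with shControl, a fall of 0.97 (SE 0.033, adjusted p = 3.26e-13 by edgeR). The shFOXRED1 libraries had 48, 45.9 and 43.2 CPM against 110, 113 and 108 CPM, a fall of 1.27 (SE 0.064, adjusted p = 2.69e-10). No treated library reached a control library in either experiment, and the effects differed by 0.33 (SE 0.063, adjusted p = 3.63e-05), with the larger fall with shFOXRED1. With HFD it was 140, 135 and 139 CPM against 126, 130 and 125 CPM and rose by 0.12 (SE 0.035, adjusted p = 0.0116), but without the first HFD library adjusted p was 0.0519. The HA-TRIM15 libraries had 216, 202 and 193 CPM against 221, 213 and 218 CPM, overlapping groups that differed by -0.09 (SE 0.039, adjusted p = 0.112).

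S100A14, a member that binds calcium weakly and is found in epithelia, is the direct neighbour of S100A16 but moved against it with shYY2. Both genes were higher with HFD and lower with shFOXRED1. It was 49.1, 49.8 and 46.8 CPM with shYY2 and 32.8, 31.6 and 35.5 CPM with shControl, and rose by 0.54 (SE 0.052, adjusted p = 1.05e-07 by edgeR). shFOXRED1 libraries gave 8.65, 8.38 and 7.73 CPM against 13.8, 11.1 and 10.1 CPM, and the level fell by 0.5 (SE 0.14, adjusted p = 0.00818), a call that was lost without the first shControl library (adjusted p = 0.0713). Groups were separate in both, and the effects of the knockdowns differed by 1.09 (SE 0.12, adjusted p = 5.81e-09). The HFD tumors had 32.8, 35.9 and 31.3 CPM against 25.3, 26 and 24.6 CPM, also without overlap, and the level rose by 0.38 (SE 0.057, adjusted p = 3.74e-05). HA-TRIM15 libraries gave 40.9, 37.3 and 40.4 CPM against 37.3, 36.7 and 36 CPM, a difference of 0.11 (SE 0.05) that was not called (adjusted p = 0.118).

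S100P, a ligand of RAGE that also binds ezrin and is known from gastrointestinal cancers, rose in 3 experiments. With shYY2 it was 44.3, 40.6 and 40.2 CPM against 15.9, 14.9 and 16 CPM and rose by 1.41 (SE 0.06, adjusted p = 5.32e-12 by edgeR), a fold of 2.67. With shFOXRED1 it was 384, 367 and 320 CPM against 235, 228 and 234 CPM and rose by 0.62 (SE 0.061, adjusted p = 4.86e-07). With HFD it was 44, 48.9 and 43.9 CPM against 38.6, 38.9 and 39.5 CPM and rose by 0.22 (SE 0.049, adjusted p = 0.00146). All 9 treated libraries of these experiments lay above their controls, and the log2 rise was 0.84 larger with shYY2 than with shFOXRED1 (SE 0.092, adjusted p = 3.96e-09). With all libraries scaled together, the shControl level of S100P was 231 CPM in the FOXRED1 experiment and 15.5 CPM in the YY2 experiment. The part of these starting levels in the difference was not tested. The S100P level with HA-TRIM15 was 16.6, 16.3 and 14 CPM against 13.2, 14.1 and 13.8 CPM, overlapping groups that differed by 0.19 (SE 0.081, adjusted p = 0.114), and the effects of HFD and HA-TRIM15 differed by 0.04 (SE 0.11, adjusted p = 0.851).

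S100A2, a member of basal squamous epithelium that binds p53, fell most with shYY2. It was 6.69, 6.12 and 6.33 CPM with shYY2 and 18.8, 18.3 and 22.6 CPM with shControl, and fell by 1.64 (SE 0.1, adjusted p = 4.19e-10 by edgeR), a fold of 3.13. The HFD tumors had 10.4, 10.6 and 9.76 CPM against 14.4, 13.6 and 13.5 CPM and the level fell by 0.44 (SE 0.074, adjusted p = 0.000122). Groups were separate in both experiments. With HA-TRIM15 it was 16.5, 16.8 and 14.3 CPM against 16.5, 18.6 and 15.4 CPM, a difference of -0.08 (SE 0.088, adjusted p = 0.57). The shFOXRED1 libraries had 4.27, 3.79 and 2.6 CPM against 3.96, 3.72 and 3.6 CPM, a difference of -0.07 (SE 0.21, adjusted p = 0.821). Both pairs of groups overlapped, and the effect of shYY2 was below that of shFOXRED1 by 1.54 (SE 0.2, adjusted p = 7.15e-08), so the difference between the knockdowns itself passed the test. With all libraries scaled together, the FOXRED1 shControl stood at 3.74 CPM, already below shYY2 at 6.47 CPM. The part of this low starting level in the difference was not tested.

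S100A4, which binds non-muscle myosin and is linked to cell motility, had a change below 0 in each comparison and was called in 2 of them. It was 19.7, 19.9 and 18.2 CPM with HFD against 28.2, 28.8 and 25.6 CPM and fell by 0.53 (SE 0.062, adjusted p = 2.62e-06 by edgeR). The shYY2 libraries had 27.5, 31.5 and 27.8 CPM against 35, 33.5 and 38.4 CPM and the level fell by 0.3 (SE 0.065, adjusted p = 0.000544). Neither pair of groups overlapped. The HA-TRIM15 libraries had 23.2, 20.6 and 17.8 CPM against 23, 24.2 and 25.2 CPM, a difference of -0.22 (SE 0.082, adjusted p = 0.0634). shFOXRED1 libraries gave 6.32, 6.17 and 5.27 CPM against 8.09, 7.43 and 6.39 CPM, a difference of -0.3 (SE 0.15, adjusted p = 0.136) that was not called although the groups did not overlap. The effects of shYY2 and shFOXRED1 differed by 0.04 (SE 0.15, adjusted p = 0.833), an SE that leaves room for a difference of either sign. S100A3 lies within the annotated span of S100A4 on the same strand, though their exons do not overlap.

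S100A6, or calcyclin, a partner of the ubiquitin ligase adaptor CACYBP, changed little in any experiment. It was 852, 949 and 826 CPM with HFD and 739, 735 and 720 CPM with ND, without overlap, and rose by 0.26 (SE 0.044, adjusted p = 0.000113 by edgeR). With shFOXRED1 it was 370, 365 and 299 CPM against 422, 435 and 392 CPM, also without overlap, and fell by 0.27 (SE 0.069, adjusted p = 0.00504). HA-TRIM15 libraries gave 793, 679 and 596 CPM against 776, 789 and 809 CPM and the level fell by 0.2 (SE 0.068, adjusted p = 0.0476), although the groups overlapped. This was the single member called with HA-TRIM15, and it was not called by DESeq2 (adjusted p = 0.235) or without any of the 3 EV libraries or the second or the third HA-TRIM15 library (adjusted p from 0.0914 to 0.14). shYY2 libraries gave 792, 779 and 753 CPM against 698, 692 and 782 CPM and the level rose by 0.1 (SE 0.04, adjusted p = 0.0377), again with overlap, and DESeq2 gave adjusted p = 0.249. The call was also lost without the first or the second library of either group (adjusted p from 0.086 to 0.226).

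S100A11, which binds annexin A1, was called in 2 experiments. It was 503, 554 and 502 CPM with HFD and 459, 453 and 471 CPM with ND and rose by 0.17 (SE 0.04, adjusted p = 0.00195 by edgeR). With shYY2 it was 328, 311 and 330 CPM against 432, 419 and 495 CPM and fell by 0.48 (SE 0.049, adjusted p = 2.8e-07). The groups did not overlap in either. Its level with HA-TRIM15 was 544, 500 and 488 CPM against 511, 527 and 522 CPM (difference -0.03, SE 0.037, adjusted p = 0.672), and with shFOXRED1 it was 402, 401 and 376 CPM against 405, 441 and 384 CPM (difference -0.06, SE 0.055, adjusted p = 0.431). The effects of the knockdowns differed by -0.37 (SE 0.078, adjusted p = 0.00014). The tables hold 8 processed pseudogenes of S100A11, none with more than 2 counts in any library, where S100A11 had at least 5182.

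The differences between effects were tested in a single model of all 24 libraries, in which 9 members could be tested. This model estimates spread over xenografts and cultures together, so its SE can be smaller than that of a single experiment. For S100A14 the SE was 0.12 between the knockdowns but 0.14 for the shFOXRED1 effect alone. Between shYY2 and shFOXRED1 7 of 9 members differed, where 55.5% of 17980 genes did. S100A4 and S100A9 were the exceptions, and S100A9 rested on 2 to 10 counts per library in the FOXRED1 experiment. Of the 7 that differed, only S100A11 had overlapping levels in the YY2 shControl and the FOXRED1 shControl, with all libraries scaled together. The part of the starting levels in these differences was not tested. Between HFD and HA-TRIM15 6 of 9 differed, where 28.4% of genes did, and in these 6 (S100A6, S100A9, S100A10, S100A11, S100A14 and S100A16) the HFD effect was the higher. Besides S100A9, the largest of them was S100A6 at 0.46 (SE 0.1, adjusted p = 0.000767 by edgeR). The differences of S100A10 (0.22, SE 0.07, adjusted p = 0.0197), S100A14 (0.28, SE 0.093, adjusted p = 0.0247) and S100A11 (0.2, SE 0.076, adjusted p = 0.0438) were less firm. S100A10 lost the call without the second HFD, the second ND or the third ND library (adjusted p 0.0512 to 0.0643), S100A14 without the first EV, the second HA-TRIM15, the second HFD or the third ND library (0.0521 to 0.0823), and S100A11 without any 1 of 8 libraries (0.0519 to 0.146): any EV, the second or the third HA-TRIM15, the second HFD, and the first or the second ND. Between HA-TRIM15 and shYY2 7 of 9 differed, where 57.4% of genes did. S100A2 (1.53, SE 0.15), S100A16 (0.85, SE 0.057), S100A10 (0.49, SE 0.071) and S100A11 (0.41, SE 0.077) were higher with HA-TRIM15 than with shYY2, each relative to its own control. S100P (-1.26, SE 0.12), S100A14 (-0.47, SE 0.094) and S100A6 (-0.33, SE 0.1) were lower, and adjusted p for these 7 was at most 0.00655.

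**Figure D3:**
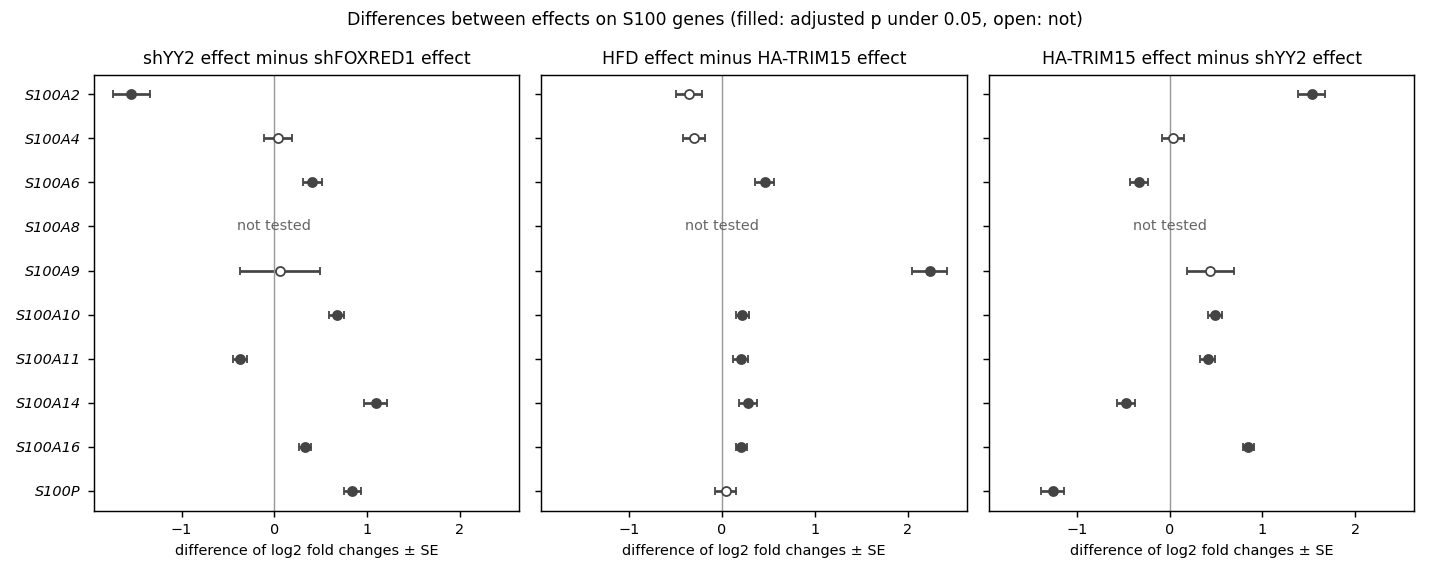
Difference of log2 fold changes between pairs of experiments (x axes, bars are SE) for each member, filled where adjusted p was under 0.05. Between shYY2 and shFOXRED1 the differences run from -1.54 for S100A2 to 1.09 for S100A14, and between HFD and HA-TRIM15 S100A9 stands out at 2.24.

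Compared per length, as CPM per kb of exon, S100A6 and S100A11 were the most abundant members in all 8 groups. In ND tumors S100A6 was 753 ± 10.5 and S100A11 678 ± 13.1 CPM per kb, followed by S100A10 (180 ± 11.1) and S100A16 (74.7 ± 1.61), and S100A8 was the lowest at 0.161 ± 0.0645 (SD, n = 3). S100A9 ranked 8 of 10 in ND tumors at 13.4 ± 0.822 CPM per kb and 5 of 10 in HFD tumors at 52.7 ± 1.38. S100P ranked 3 of 10 in both groups of the FOXRED1 experiment, with 181 ± 3.02 CPM per kb in shControl and 279 ± 26 with shFOXRED1, and between 5 and 8 of 10 elsewhere.

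**Figure D4:**
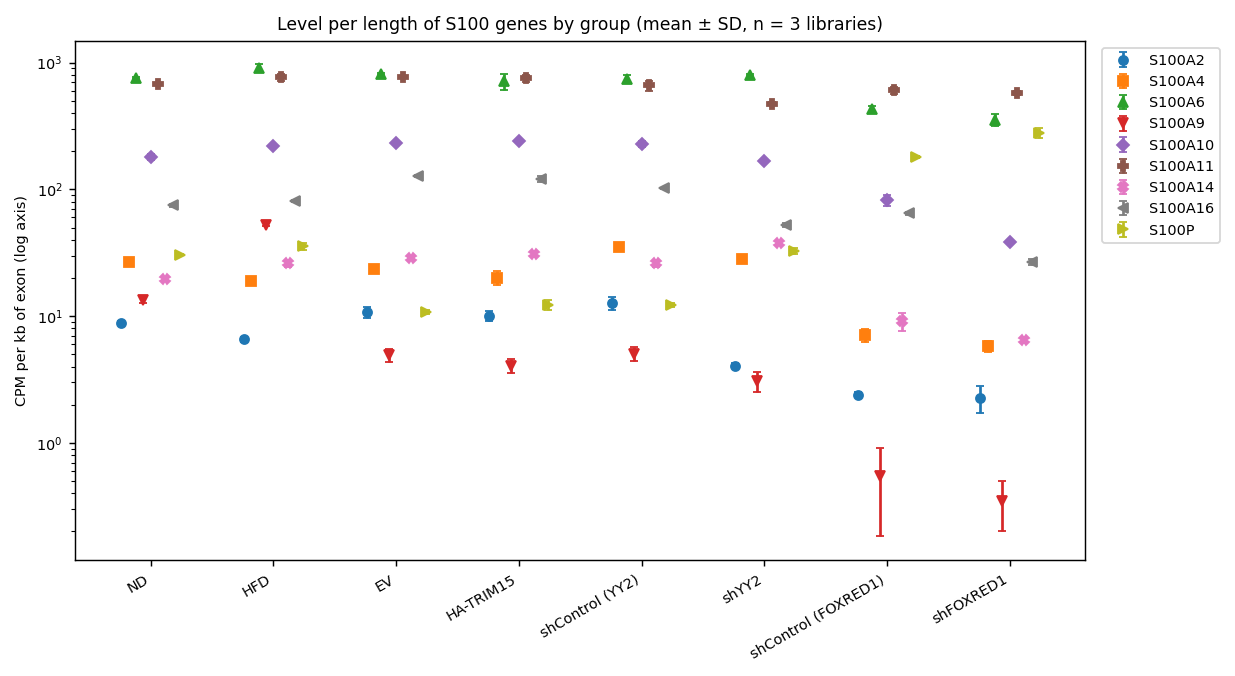
Level per length (CPM per kb of exon, log axis) of 9 members in the 8 groups on the x axis, as mean ± SD of 3 libraries; S100A8 is left out because it was at 0 in several groups. S100A6 and S100A11 lie at the top in every group, S100P rises to 181 and 279 in the FOXRED1 experiment, and S100A9 there rests on 2 to 10 counts per library.

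Across experiments, with all 24 libraries scaled together, the FOXRED1 cultures differed from the other cultures before any knockdown is considered. S100P was 231 ± 3.12 CPM in the shControl of the FOXRED1 experiment and 15.5 ± 0.604 CPM in the shControl of the YY2 experiment, a ratio of 14.9 (SD, n = 3). S100A2 was 3.74 ± 0.188 against 19.8 ± 2.33 CPM, 5.29 times lower, and S100A4 was 7.26 ± 0.868 against 35.3 ± 2.51 CPM, 4.87 times lower. S100A10 was 125 ± 12.2 against 348 ± 20.5 CPM and S100A14 11.6 ± 1.93 against 33 ± 2.01 CPM. In these 5 members no library of either shControl group overlapped the other. The same held for S100A6 (414 ± 23.5 against 718 ± 50.2 CPM), S100A16 (110 ± 3.25 against 173 ± 1.94 CPM) and S100A9 (0.315 ± 0.211 against 2.9 ± 0.371 CPM). S100A11 overlapped, at 407 ± 30.3 and 445 ± 40.9 CPM, and S100A8 was at 0 in both. The share of all genes without overlap between these shControl groups was not computed. Squamous markers also summed to 58.9 to 62.1 CPM in the FOXRED1 shControl and 202 to 212 CPM in the YY2 shControl. These are the same line with the same label of treatment, and culture, batch and library preparation cannot be told apart from the experiment.

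The order of the 8 groups differed by member. S100P was highest with shFOXRED1 (352 ± 33.1 CPM, all libraries scaled together), then in the FOXRED1 shControl, and HFD (44.6 ± 2.9) and shYY2 (42.3 ± 2.48) came next and overlapped. S100A9 was highest with HFD (29.7 ± 0.784 CPM), then ND (7.55 ± 0.476), and EV, the YY2 shControl, HA-TRIM15 and shYY2 followed at 1.8 to 2.92 CPM with each neighbour overlapping the next. S100A16 was highest in EV and HA-TRIM15 (224 ± 3.91 and 209 ± 12.1 CPM, overlapping) and lowest with shFOXRED1 (45.1 ± 2.38). S100A14 was highest with shYY2 (49.3 ± 1.67 CPM), and S100A2 and S100A4 were highest in the YY2 shControl. S100A6 overlapped between each neighbour of the first 6 groups, from 856 ± 64.6 CPM with HFD to 707 ± 103 CPM with HA-TRIM15, and was lower in the FOXRED1 experiment. S100A11 spanned the narrowest range, from 535 ± 9 CPM in EV to 328 ± 11.3 CPM with shYY2, a ratio of 1.63, where that of S100A10 was 6.54.

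The gene whose changes most resembled a member's was sought over the 24 libraries, after each library was expressed relative to its experiment's control mean, among 14519 genes tested in all 4 experiments. S100P was closest to DEPP1 (Pearson r = 0.989), S100A16 to KIAA1549L (0.989), S100A2 to PYGB (0.977), S100A10 to CAP1 (0.976) and S100A14 to OAF (0.97). S100A11 was closest to PSMA7 (0.958), S100A6 to RPS14 (0.938) and S100A4 to PHC2 (0.908). Among the members, S100A10 and S100A16 were closest (0.942) and S100P and S100A2 most opposed (-0.853). The libraries fall into 8 groups that each share their treatment, so these values describe the pattern and carry no test.

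Other S100 genes were mostly silent. Of 11 further family members, 3 (S100A7A, S100A7L2 and S100B) had 0 counts in all libraries, and 3 or 4 could be tested in each experiment. S100A3, a neighbour of S100A4, rose with HFD from 5.4 ± 0.655 to 7.28 ± 0.684 CPM (log2 change 0.43, SE 0.11, adjusted p = 0.00388 by edgeR) and fell with shYY2 from 10.2 ± 0.396 to 3.75 ± 0.307 CPM (-1.44, SE 0.11, adjusted p = 6.32e-09). S100A5 was 0.349 ± 0.141 CPM with HFD against 1.83 ± 0.189 CPM (-2.3, SE 0.25, adjusted p = 1.25e-06) and 1.02 ± 0.375 CPM with shYY2 against 0.53 ± 0.163 CPM (0.93, SE 0.35, adjusted p = 0.0258, overlapping groups). S100A1 was 1.45 ± 0.254 CPM with shYY2 against 0.49 ± 0.0163 CPM (1.55, SE 0.27, adjusted p = 9.04e-05 by edgeR). The values of S100A5 and S100A1 rest on few counts. S100A5 had 5 to 19 counts per library with HFD against 37 to 98, and 12 to 23 with shYY2 against 8 to 13. S100A1 had 19 to 29 counts with shYY2 against 8 to 10. With 10 counts required in every library, the called genes among these 11 went from 2 to 1 with HFD and from 3 to 1 with shYY2. S100A13 was not called in any experiment. S100A1 and S100A13 overlap on opposite strands, and since the kit's strand setting is not settled by the sources used here, their reads may not be separable.

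Of 15 listed binding partners and receptors of S100 proteins, 14 were tested in each experiment. With HFD 6 were higher and 3 lower (median log2 change 0.082), with HA-TRIM15 7 and 1 (0.088), with shYY2 8 and 3 (0.119), and with shFOXRED1 1 and 7 (-0.148). Over all tested genes, the shares called in the same order were 49.5%, 22.1%, 75% and 36.6%. The 8 called with HA-TRIM15 became 4 without the first or the second EV library and 5 without the third EV or the second HA-TRIM15 library. EZR, the membrane linker bound by S100P, rose with HFD (1360 ± 52.3 against 1070 ± 10.6 CPM; 0.35, SE 0.034, adjusted p = 3.28e-07 by edgeR) and with HA-TRIM15 (0.18, SE 0.026, adjusted p = 0.000168). ANXA6 also rose in both, by 0.65 (SE 0.045, adjusted p = 5.66e-09) and 0.18 (SE 0.048, adjusted p = 0.0153). ANXA1, the annexin bound by S100A11, rose with HA-TRIM15 by 0.2 (SE 0.028, adjusted p = 0.000193) and fell with shFOXRED1 by 1.23 (SE 0.052, adjusted p = 2.68e-11), from 379 ± 18.5 to 162 ± 2.03 CPM. AHNAK, the scaffold bound by the S100A10 and annexin A2 complex, rose with shYY2 by 0.6 (SE 0.022, adjusted p = 8.59e-13) and fell with shFOXRED1 by 0.82 (SE 0.044, adjusted p = 4.77e-10). CACYBP, the partner of S100A6, fell with shYY2 from 181 ± 7.23 to 76 ± 1.34 CPM (-1.25, SE 0.036, adjusted p = 5.18e-14).

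The cornified envelope genes of the same chromosomal complex were measured beside the family. For scale, 49.5% of all tested genes were called with HFD, 22.1% with HA-TRIM15, 75% with shYY2 and 36.6% with shFOXRED1. Of 19 listed, 7 were tested with shYY2 and all 7 were lower, with a median log2 change of -2.043 where that of all tested genes was -0.008. IVL, the envelope scaffold involucrin, was 0.645 ± 0.148 against 4.95 ± 0.156 CPM (-2.94, SE 0.19, adjusted p = 9.95e-10 by edgeR), SPRR3 4 ± 0.484 against 17.8 ± 0.901 CPM (-2.16, SE 0.1, adjusted p = 2.08e-11) and SPRR2A 1.64 ± 0.213 against 6.75 ± 0.708 CPM (-2.04, SE 0.15, adjusted p = 5.8e-09). With HA-TRIM15 4 of 7 tested were higher by edgeR and by DESeq2 and none was lower by either or at unadjusted p under 0.05, among them SPRR2A (0.85, SE 0.11, adjusted p = 7.17e-05), SPRR1A (0.58, SE 0.099, adjusted p = 0.000892) and SPRR2D (0.37, SE 0.084, adjusted p = 0.00608). With HFD 1 of 8 was higher and 3 were lower, SPRR1A (-0.77, SE 0.062, adjusted p = 3.12e-08), IVL (-0.6, SE 0.11, adjusted p = 0.000229) and SPRR3 (-0.59, SE 0.063, adjusted p = 9.94e-07), in the same tumors in which S100A8 and S100A9 were higher. With shFOXRED1 1 of 4 was higher, SPRR1A (0.41, SE 0.15, adjusted p = 0.0432), which was not called by DESeq2 or without the first or the second shControl library. The SPRR2 genes are near-identical copies, and reads shared among related SPRR genes may be split by the authors' counting.

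Genes flanking the S100 cluster that do not belong to the family were listed as neighbours. Of 12 listed, with HFD none was higher (nor at unadjusted p under 0.05, nor by DESeq2) and 2 of 12 tested were lower, CREB3L4 (-0.47, SE 0.084, adjusted p = 0.00019 by edgeR) and DENND4B (-0.36, SE 0.046, adjusted p = 6.17e-06), a count that became 7 without the second HFD library and 4 with no filter on counts. With HA-TRIM15 0 of 11 were called by edgeR or by DESeq2, and at unadjusted p under 0.05 1 was higher and 3 lower; 3 were called without the first HA-TRIM15 library and 1 without the first EV library. With shYY2 2 of 12 were higher and 5 lower, with ILF2 (-1.12, SE 0.031, adjusted p = 3.39e-14) as the largest change, followed by JTB (-0.48, SE 0.093, adjusted p = 0.000212) and CHTOP (-0.44, SE 0.033, adjusted p = 5.75e-09). With shFOXRED1 3 of 10 were higher and 2 lower, among them JTB (-0.64, SE 0.12, adjusted p = 0.000399), SNAPIN (0.46, SE 0.1, adjusted p = 0.00167) and DENND4B (0.37, SE 0.06, adjusted p = 0.000131). Beside these counts, the shares of all tested genes called were 49.5% with HFD, 22.1% with HA-TRIM15, 75% with shYY2 and 36.6% with shFOXRED1.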

How the data were processed

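RNA-seq was done on 24 OE33 libraries in 8 groups of 3, grouped by the labels. The authors deposited 4 tables of raw counts per Ensembl gene for 61860 identifiers, of which 99.8% were named through the reference tables. The aligner and counter are not given in the sources used here; the submitters' processing notes name hg38 and mm10 with no role, and the library kit differs between labels and methods, so strand and mouse reads are unsettled. Genes passing filterByExpr (minimum count 10, minimum total 15) were tested per experiment with edgeR 4.0.16 (quasi-likelihood, TMM, R 4.3.3), checked on simulated data, at adjusted p 0.05. Differences between effects came from 1 model of all 24 libraries. With 3 against 3 libraries, an exact permutation test cannot go below p = 0.1. Depth was 14299807 to 45994561 counts per library, and low counts limit S100A8 and S100A9, and S100A1 and S100A5 among the other S100 genes. No replicate pair agreed within sampling noise (chi-square per gene 1.42 to 7.1 over 24 pairs). Alternatives were DESeq2 1.42.0, its size factors, no filter, 10 counts in every library, a replicate block and leaving out each library. Deviations of same-numbered libraries correlated at -0.028 to 0.097 over all tested genes. Over genes of at least 10 CPM every such pair passed 0.1 only in the FOXRED1 experiment (0.211, 0.125 and 0.41). There shFOXRED1 library 2 with shControl library 1 (0.205) and 1 with 2 (0.148) passed it too. Pairs of library 3 with 1 or 2 were negative (-0.304 to -0.192), so the pattern was not particular to equal numbers. The named genes were the 10 members, other S100 genes of at least 1 CPM in a group, in each of the partner, cornified envelope and neighbour lists the 3 largest called changes with groups that do not overlap and at least 1 CPM, and the closest gene to each member. The members and lists were chosen with earlier results of these data known. Sequences and motifs came from RefSeq promoter windows of GRCh38.p14, and lengths and positions from GENCODE 29.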

Additional observations from a re-analysis of the deposited data

Results flagged for a closer look

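4 differences between effects were picked out because a member moved in opposite directions in 2 experiments and the difference itself passed the test (edgeR, all 24 libraries). S100A14 rose with shYY2 and fell with shFOXRED1, a difference of 1.09 (SE 0.12, adjusted p = 5.81e-09). The fall with shFOXRED1 lost its call without the first shControl library. S100A6 rose with shYY2 and fell with shFOXRED1, a difference of 0.41 (SE 0.1, adjusted p = 0.0013), where the rise with shYY2 lost its call in several alternatives. S100A6 rose with HFD and fell with HA-TRIM15, a difference of 0.46 (SE 0.1, adjusted p = 0.000767), where the fall with HA-TRIM15 lost its call in several alternatives. S100A6 fell with HA-TRIM15 and rose with shYY2, a difference of -0.33 (SE 0.1, adjusted p = 0.00655), where both single effects were small and lost their call in several alternatives.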

How the results depend on the processing

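Of 25 called member results, 21 kept their direction and side of the threshold in every alternative, and 261 of 274 single values did. With HA-TRIM15 the 1 called member became 0 by the DESeq2 Wald test, 3 with no filter on counts, and 0 to 4 when a library was left out (4 without HA-TRIM15 replicate 1). The calls of S100A6 with HA-TRIM15 and with shYY2, of S100A16 with HFD and of S100A14 with shFOXRED1 were lost under some alternatives. Signs turned only in uncalled values when a library was left out: S100A11 with HA-TRIM15 at 0.006 (range -0.076 to 0.006), S100A2 with shFOXRED1 at 0.094 (-0.221 to 0.094), the difference between shYY2 and shFOXRED1 for S100A4 at -0.041, -0.032 and -0.017 (highest 0.128) and for S100A9 at -0.642, -0.249 and -0.085 (highest 0.397), that between HFD and HA-TRIM15 for S100P at -0.032 and -0.009 (highest 0.091), and that between HA-TRIM15 and shYY2 for S100A4 at -0.063 and -0.005 (highest 0.136). The cause was not tested. Between HFD and HA-TRIM15, 4 to 8 members differed when a library was left out, and the calls of S100A10, S100A11 and S100A14 were those lost, while S100A2 and S100A4 gained theirs in some fits. With the replicate block, the members called stayed at 10 with HFD, 1 with HA-TRIM15, 9 with shYY2 and 5 with shFOXRED1, and the pairing by number changed no other call within an experiment; between HFD and HA-TRIM15 it gave 7 members in place of 6. Depth limits S100A8 in culture and S100A9 in the FOXRED1 experiment.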
